A study of Mus musculus with 39 samples.

Results

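C1q is the protein with which the classical complement pathway recognises its targets, and the comparison described here asks how cultured mouse lung fibroblasts given the highest of its 3 doses for 2 h differed from cells given either lower dose for the same time. It sets 3 libraries of cells with C1q at 100 µg/ml against 6 libraries at 1 or 10 µg/ml, 3 per dose, with equal weight for each dose. These are 9 of the 39 libraries of the series, chosen by the dose and time in their labels. The cells were lung fibroblasts of wild-type C57BL/6 mice, taken as the cells left after magnetic removal of those carrying CD45, CD31, EpCAM, CD146 or Ter119, and grown in medium with fetal bovine serum. Before C1q, which was a commercial preparation from MilliporeSigma, every culture was kept for 24 h without serum. Poly(A) RNA was read from the 5′ end of transcripts on an Illumina NovaSeq instrument. The 3 untreated libraries of the series were taken at 0 h, and no group given only the carrier solution of C1q is among the samples, so anything in the stock that rises with dose cannot be told apart from C1q itself.

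Fibroblasts answer many outside stimuli within the first hours by transcribing immediate early genes, whose products are transcription factors and feedback inhibitors of ERK kinases, NF-kB and STAT3. The same early programme in fibroblasts makes prostaglandin through the inducible cyclooxygenase, hyaluronan through membrane synthases, interleukin-6, and matricellular proteins of the CCN and thrombospondin families under the control of the serum response factor (SRF) and of YAP with TEAD. Prostaglandin E2 acts back on fibroblasts through receptors that raise cyclic AMP.

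Library totals were 1806106 to 2454773 counts at 100 µg/ml, 2382405 to 2956523 at 1 µg/ml and 1999841 to 2843730 at 10 µg/ml. Levels are given as CPM, counts scaled to a common library size by the TMM method. Fibroblast genes were present in all 9 libraries, with Pdgfra, a receptor of fibroblasts, at 514 to 706 CPM and Dcn, a matrix proteoglycan, at 304 to 372 CPM. Of the depleted types, Ptprc, the gene of CD45, was at 1.02 to 3.5 CPM, Pecam1, of CD31, at 4.9 to 10.5 CPM and Mcam, of CD146, at 14.5 to 21 CPM. Epcam stood at 36.4 to 54.7 CPM, the epithelial marker Krt8 at 109 to 169 CPM and Lyz2 of myeloid cells at 142 to 194 CPM. The summed level of the 12 epithelial markers was 577 to 637 CPM at 100 µg/ml, against 652 to 679 CPM at 1 µg/ml and 543 to 687 CPM at 10 µg/ml. For the 18 myeloid markers the sums were 273 to 300 CPM at 100 µg/ml, 289 to 299 CPM at 1 µg/ml and 246 to 255 CPM at 10 µg/ml. Mesothelial markers summed to 312 to 359 CPM at 100 µg/ml, against 361 to 394 CPM at 1 µg/ml and 329 to 380 CPM at 10 µg/ml, and lymphocyte markers to 2.43 to 4.93 CPM at 100 µg/ml, against 0.434 to 1.06 CPM and 1.53 to 3.15 CPM. The part of these cells in the results was not tested. In a principal component analysis of the 9, the leading axis, with 21.7% of the variance, set the 3 at 100 µg/ml (17.7 to 32.7) apart from the 6 at the lower doses (-17.2 to -7.58).

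The libraries at 100 µg/ml were not alike in every respect. In 28 genes called higher at 100 µg/ml, the second and the third library lay above all 6 lower-dose libraries and at more than 2 times the first, which itself did not exceed the highest lower-dose library. Tnfrsf26, a member of the tumour necrosis factor receptor family, had 29.96, 1265 and 1369.9 CPM at 100 µg/ml, against 27.7, 34.7 and 30.9 CPM at 1 µg/ml and 35.4, 28.7 and 47.03 CPM at 10 µg/ml. Bicra, which encodes a subunit of a chromatin remodelling complex, had 13.7, 175 and 241 CPM at 100 µg/ml, against 12.1, 19.1 and 18.7 CPM at 1 µg/ml and 18.2, 19.4 and 29.1 CPM at 10 µg/ml. Both genes were picked for this description after their values were seen. The 28 genes together took 0.201%, 1.24% and 1.30% of the counts in the first, the second and the third library at 100 µg/ml, against 0.172 to 0.263% in the 6 lower-dose libraries. Of the 28, 15 are predicted or unnamed transcripts. The later groups showed unequal levels too. Tnfrsf26 had 58.2, 538 and 323 CPM in the libraries at 100 µg/ml after 24 h, against 29.2 to 65.6 CPM at the lower doses. After 48 h it had 327, 1031 and 944 CPM at 100 µg/ml, against 41.2 to 72.9 CPM at the lower doses, and after 72 h 534, 274 and 97.4 CPM, against 34.4 to 76.1 CPM. No gene of this group is among the leading genes below, since each of those had all 3 libraries beyond all 6.

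At 2 h more genes were called lower than higher at 100 µg/ml, relative to the lower doses, and the falls include Has2, Ptgs2, Cebpd and Socs3. Of 14419 genes tested, 596 were called, with an adjusted p under 0.05 in the quasi-likelihood test of edgeR, Benjamini-Hochberg adjusted, which is 4.13% of them. At 100 µg/ml 417 genes were lower (2.89%) and 179 higher (1.24%). The log2 differences, 100 µg/ml minus the mean of 1 and 10 µg/ml, had a median of -0.51 among the genes called lower and 0.71 among those called higher, against -0.01 over all genes. Genes called lower were also more abundant, with a median average log2 CPM of 6.17, against 4.61 for those called higher and 4.50 for all. A size of at least 1 on the log2 scale was reached by 52 genes called lower and by 59 called higher. Predicted or unnamed symbols were carried by 37 of the 179 genes called higher and 8 of the 417 called lower. The genes called higher include the 28 described above, in which not all libraries at 100 µg/ml exceeded the lower doses. Many of the 28 passed a size of 1, from Tnfrsf26 at 4.71 to Gm52303 at 1.16, and 15 are predicted or unnamed. The 59, the 37 and the median of 0.71 therefore rest in part on genes without a rise in every library at 100 µg/ml. In whole-culture RNA, fewer cells of a type and less RNA per cell cannot be told apart.

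In 371 of the 417 genes called lower, all 3 libraries at 100 µg/ml lay below all 6 at the lower doses, and in 106 of the 179 called higher they lay above all 6. The calls were made from these same 9 libraries, so the separation describes the called genes and is no independent support for them. The share of all tested genes with such a separation is not given here, and nothing is read from these counts. The count of 596 fell to 358 without the first library at 100 µg/ml, to 418 without the second and to 323 without the third, and no gene among the 596 changed direction in these fits. With the first of them as the only library at 100 µg/ml, an alternative added after the data were seen in which that library is taken to vary like the other groups, 119 genes were called, 93 lower and 26 higher. In that fit 23 of the 596 genes changed direction. Calls that held on leaving out each of the 9 libraries in turn numbered 202, of which 154 were lower and 48 higher. The leading genes below are the 14 largest falls and 14 largest rises among named genes with such a call, an average log2 CPM of at least 3 and no overlap between the 3 libraries at 100 µg/ml and the 6 at the lower doses.

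**Figure D1:**
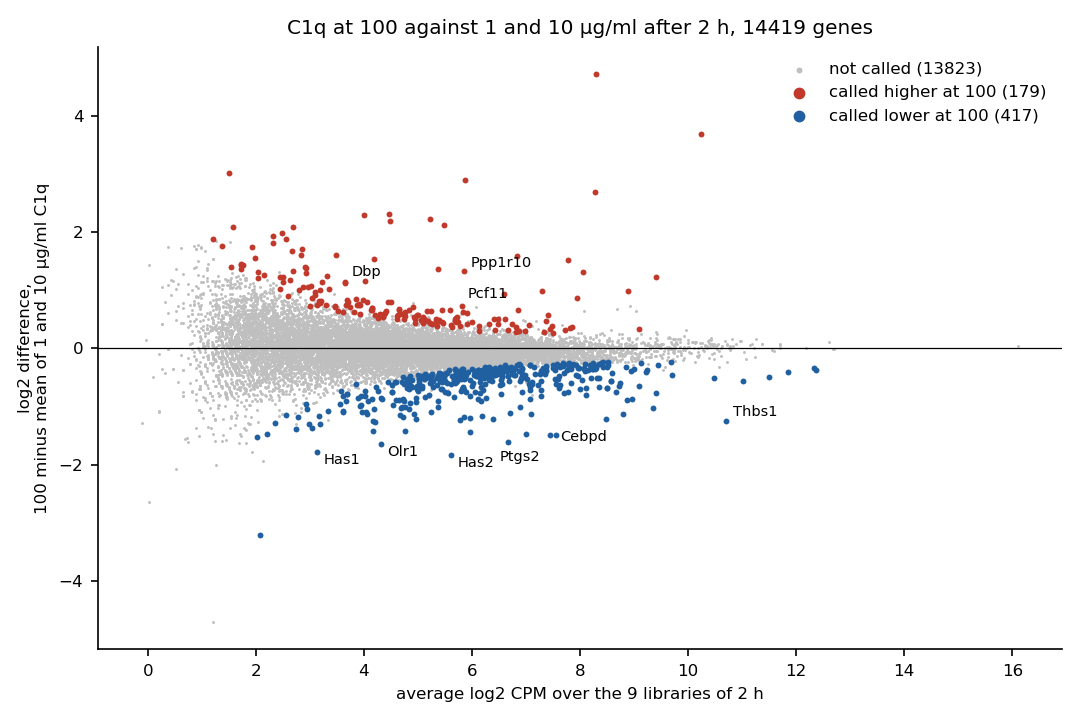
Log2 difference between 100 µg/ml and the mean of 1 and 10 µg/ml C1q at 2 h (vertical axis) against the average log2 CPM over the 9 libraries (horizontal axis), 1 point per gene tested. Called genes are red where higher (179) and blue where lower (417) at 100 µg/ml, grey points were not called, and some leading genes carry their names. The largest positive differences, up to 4.71, are led by Tnfrsf26, in which the first library at 100 µg/ml stood apart.

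Genes of hyaluronan and prostaglandin signalling were prominent among the leading falls. Has2 (chromosome 15, 56665627 to 56694546 in GRCm38), the main hyaluronan synthase of fibroblasts, had 18.5, 19.4 and 14.2 CPM at 100 µg/ml, against 57.5, 63.7 and 50.3 CPM at 1 µg/ml and 68.98, 75.5 and 62.4 CPM at 10 µg/ml. All 3 libraries at 100 µg/ml lay below all 6 others, and untreated cells at 0 h had 24.05, 24.2 and 26.8 CPM. The log2 difference was -1.83 ± 0.13 (SE), adjusted p = 1.14e-14 in the quasi-likelihood test of edgeR, Benjamini-Hochberg adjusted, the test behind each adjusted p given below. Has1 (chromosome 17, 17833691 to 17855589), a second hyaluronan synthase, had 2.203, 2.83 and 3.83 CPM at 100 µg/ml, against 8.87, 8.67 and 5.77 CPM at 1 µg/ml and 15.8, 10.7 and 12.3 CPM at 10 µg/ml. Its levels were low and its difference was -1.77 ± 0.36, adjusted p = 0.00107. Reads of Has2 and of its antisense RNA Has2os, which overlaps it, cannot be separated with certainty here.

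Ptgs2 (chromosome 1, 150100031 to 150108234), the inducible cyclooxygenase, had 45.8, 46.95 and 33.4 CPM at 100 µg/ml, against 120.2, 134 and 109 CPM at 1 µg/ml and 122, 141 and 156 CPM at 10 µg/ml. The lowest of the 6 lower-dose libraries was more than 2 times the highest at 100 µg/ml, while untreated cells had 28.5, 30.5 and 29.4 CPM. Ptgs2 differed by -1.61 ± 0.12, adjusted p = 8.76e-14. Ptger4 (chromosome 15, 5233399 to 5244187), the EP4 receptor for prostaglandin E2, had 8.37, 8.5003 and 6.57 CPM at 100 µg/ml, against 20.2, 23.8 and 20.7 CPM at 1 µg/ml and 21.01, 18.1 and 24.5 CPM at 10 µg/ml. It differed by -1.42 ± 0.17, adjusted p = 7.45e-08, and stood at 12.8, 11.1 and 13.2 CPM in untreated cells, between the doses. The gene lists used here and below were written with earlier results of these data known, so their counts are no independent support. Of 19 tested genes on the list of prostaglandin and hyaluronan genes, 8 fell and 1 rose, with a median log2 difference of -0.30, where 2.89% and 1.24% of all genes were called lower and higher. The other falls included Cd44, the hyaluronan receptor, at -0.53 ± 0.08, Tnfaip6, a hyaluronan-binding protein, at -0.69 ± 0.12, and Cemip, a hyaluronan-degrading factor, at -0.50 ± 0.09. The rise was Hyal1, a lysosomal hyaluronidase, at 0.58 ± 0.16, a call lost without the first (adjusted p = 0.158) or the third (0.0708) library at 100 µg/ml. The constitutive cyclooxygenase gene Ptgs1, at 0.00 ± 0.08, was not called. With the first library as the only one at 100 µg/ml, 6 of the list were lower and 0 higher.

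Genes of the interleukin-6 family and of STAT3 feedback were lower in part. Of the 18 tested members 9 fell and 0 rose, where 2.89% and 1.24% of all genes were called lower and higher, and the median was -0.42. All 18 had a negative log2 difference, as had 7388 of all 14419 genes. Lists with 1 fall were much alike in sign, with 19 of 20 unfolded protein response genes and 17 of 18 myofibroblast contractile genes negative. Cebpd (chromosome 16, 15887286 to 15889545), a transcription factor of the acute-phase response, had 87.2, 76.1 and 71.2 CPM at 100 µg/ml, against 231, 222 and 175 CPM at 1 µg/ml and 243, 191 and 254 CPM at 10 µg/ml. Untreated cells had 262, 265 and 249 CPM, above every library of C1q at 2 h except 1 at 10 µg/ml, which lay within their range. Its difference was -1.48 ± 0.11, adjusted p = 7.51e-14. Socs3 (chromosome 11, 117966079 to 117970336), an inhibitor of cytokine receptor signalling, had 24.7, 33.2 and 24.6 CPM at 100 µg/ml, against 64.2, 55.1 and 53.3 CPM at 1 µg/ml and 84.7, 90.3 and 121 CPM at 10 µg/ml. Besides the gap to 100 µg/ml, its libraries at 10 µg/ml all lay above those at 1 µg/ml, with a difference of 0.77 ± 0.13, adjusted p = 0.000247. For 100 µg/ml against both doses Socs3 differed by -1.43 ± 0.14, adjusted p = 1.02e-10. Il6 (chromosome 5, 30013114 to 30019975), the cytokine itself, had 13.2, 8.095 and 4.38 CPM at 100 µg/ml, against 19.5, 19.9 and 16.3 CPM at 1 µg/ml and 26.3, 19.4 and 25.05 CPM at 10 µg/ml. Its 3 libraries at 100 µg/ml were spread more widely than those of Cebpd or Socs3, and Il6 differed by -1.25 ± 0.23, adjusted p = 0.000297, with -0.66 and an adjusted p of 0.429 when the first library stood alone. The kinase genes Pim1, at -0.91 ± 0.11, and Pim3, at -0.84 ± 0.15, and the cytokine gene Il11, at -0.73 ± 0.14, fell too. With the first library alone at 100 µg/ml, 3 of the 18 were called lower, and leaving out that library gave 6.

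Immediate early genes and genes of ERK feedback were lower in part. Of 26 tested immediate early genes 11 fell and 1 rose, and of 20 genes of ERK feedback and ligands of the epidermal growth factor (EGF) receptor 8 fell and 0 rose, with medians of -0.43 and -0.44. The shares over all genes were 2.89% lower and 1.24% higher. Fosl1, an AP-1 subunit, averaged 43.3 ± 8.398 CPM at 100 µg/ml and 80.8 ± 12.2 CPM at the lower doses (SD, n = 3 and 6), and differed by -0.87 ± 0.13, adjusted p = 4.3e-06. Egr3, a zinc finger transcription factor, averaged 14.3 ± 3.12 CPM at 100 µg/ml and 30.005 ± 8.58 CPM at the lower doses (SD, n = 3 and 6) and differed by -1.03 ± 0.21, adjusted p = 0.000881. Untreated cells held 11.2, 8.42 and 5.96 CPM of Fosl1 and 1.202, 1.05 and 3.83 CPM of Egr3, so both genes stood above untreated levels at each dose. Fosl2, another AP-1 subunit, at -0.61 ± 0.10, Ier3 at -0.67 ± 0.11 and Klf6, a Krüppel-like factor, at -0.51 ± 0.09 fell as well. Several classical members did not pass the test. Fos stood at -0.45 ± 0.23, Egr1 at -0.10 ± 0.09, Jun at -0.23 ± 0.09, Nr4a1 at 0.31 ± 0.15 and Nr4a3 at -0.28 ± 0.11. Atf3, a stress-induced transcription factor, rose by 0.67 ± 0.16, adjusted p = 0.00683, a call lost without the second library at 100 µg/ml (adjusted p = 0.0501) and without the third (0.0604).

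Among the ERK and EGF receptor genes, Dusp4, a phosphatase of ERK kinases, had 15.4, 16.2 and 16.4 CPM at 100 µg/ml, against 26.2, 30.3 and 26.8 CPM at 1 µg/ml and 38.5, 35.2 and 43.96 CPM at 10 µg/ml, a difference of -1.04 ± 0.19 with adjusted p = 0.00019. Dusp5, of the same family, differed by -0.76 ± 0.17. Ereg, the ligand epiregulin, averaged 68.9 ± 8.74 CPM at 100 µg/ml and 141 ± 25.4 CPM at the lower doses (SD, n = 3 and 6), and Errfi1, an inhibitor of the EGF receptor kinase, averaged 318 ± 51.6 CPM at 100 µg/ml and 586 ± 80.3 CPM at the lower doses. Their differences were -1.01 ± 0.11 (adjusted p = 1e-08) and -0.87 ± 0.10 (adjusted p = 2.98e-08). The untreated levels, 11.2, 9.47 and 10.2 CPM for Ereg and 87.8, 92.6 and 106 CPM for Errfi1, were below all 9 libraries. Without the third library at 100 µg/ml the calls were 7 of 26 and 5 of 20 lower, and with the first alone 3 and 3.

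Matricellular and cytoskeletal targets of SRF and YAP were lower in part. Of 27 tested genes 10 fell and 0 rose, against 2.89% and 1.24% of all genes, with a median of -0.21. Ccn1 (chromosome 3, 145646971 to 145649985), a secreted matricellular protein, had 94.3, 77.7 and 79.97 CPM at 100 µg/ml, against 274, 226 and 206 CPM at 1 µg/ml and 232, 197 and 281 CPM at 10 µg/ml. The 3 libraries at 100 µg/ml also lay below untreated cells, which had 143, 128 and 139.7 CPM. Ccn1 differed by -1.49 ± 0.13, adjusted p = 3.44e-12. Thbs1 (chromosome 2, 118111876 to 118127133), thrombospondin-1, had 831, 928 and 853 CPM at 100 µg/ml, against 1951, 1818 and 1798 CPM at 1 µg/ml and 2164, 2372 and 2312 CPM at 10 µg/ml. At every dose it stood above untreated cells, at 524, 430.4 and 468 CPM, and the doses differed by -1.24 ± 0.09, adjusted p = 8.31e-14. Ccn2, connective tissue growth factor, averaged 188 ± 14.4 CPM at 100 µg/ml and 439 ± 47.001 CPM at the lower doses (SD, n = 3 and 6), a difference of -1.22 ± 0.09 with adjusted p = 2.56e-13, and untreated cells had 175, 166 and 209 CPM. Ankrd1, a nuclear cofactor induced by YAP, differed by -1.17 ± 0.16, adjusted p = 6.41e-07. F3, tissue factor, the trigger of blood clotting, differed by -0.71 ± 0.09. The actin genes Actb and Actg1 fell by small amounts, -0.34 ± 0.07 and -0.40 ± 0.08. Acta2, at -0.16 ± 0.11, and Tagln, at -0.15 ± 0.09, smooth muscle genes of myofibroblasts, were not called. Of the 18 myofibroblast contractile genes 1 fell, Vcl, which also stands on the SRF list, at -0.39 ± 0.10. That call was lost without the first (adjusted p = 0.133) or the second (0.154) library at 100 µg/ml.

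**Figure D2:**
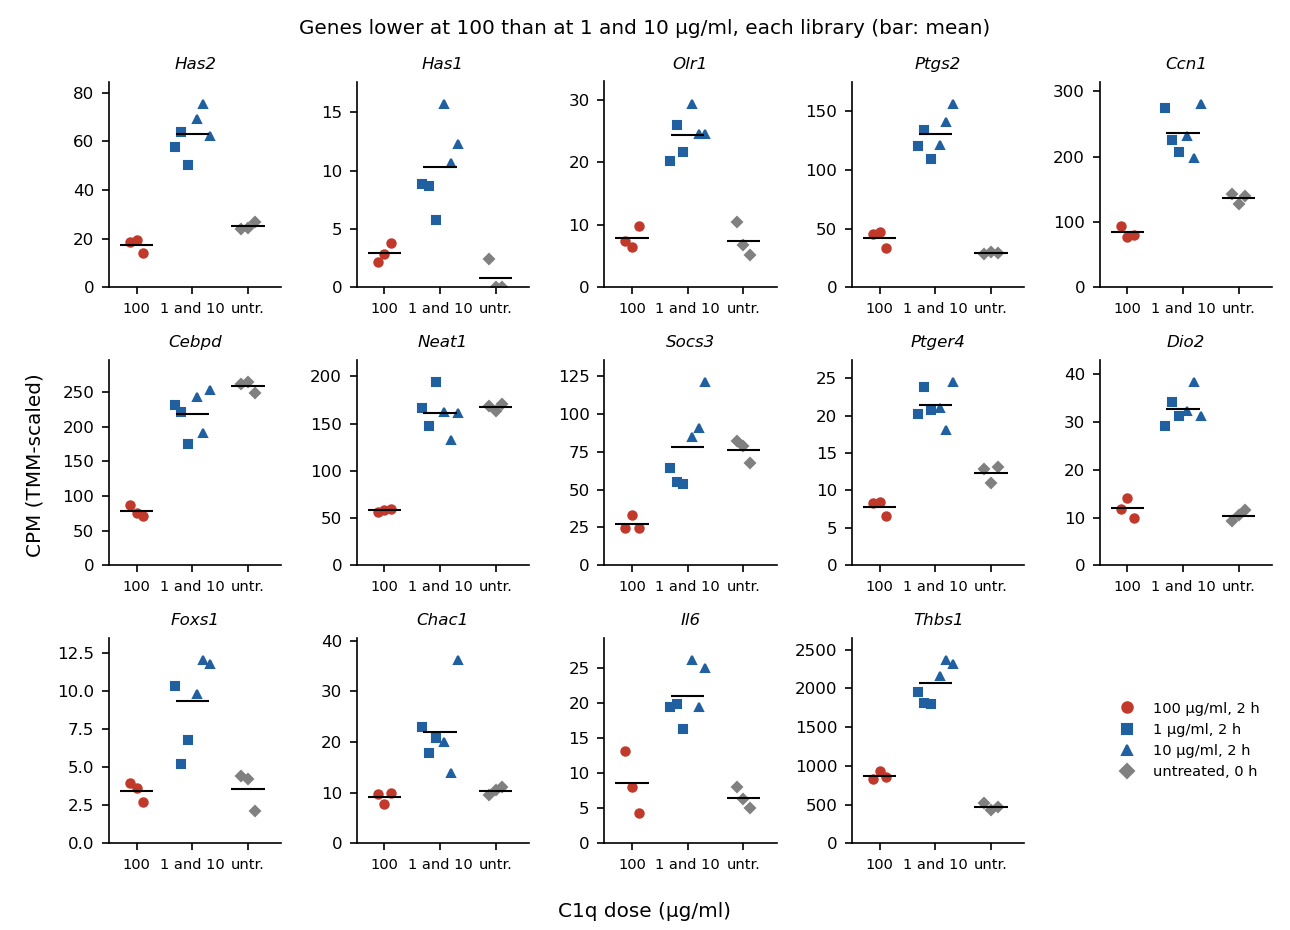
TMM-scaled CPM of the 14 leading falls in each library at 100 µg/ml (circles), 1 µg/ml (squares) and 10 µg/ml (triangles) after 2 h, and in untreated cells at 0 h (diamonds), with bars for the means. The 3 libraries at 100 µg/ml lie below all 6 at the lower doses in each panel, which the rule for naming these genes required, while the untreated cells lie near those at 100 µg/ml for Olr1, Dio2 and Chac1 and near the lower doses for Cebpd, Neat1 and Socs3.

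The remaining leading falls are of mixed function. Neat1 (chromosome 19, 5824708 to 5845480), the long non-coding RNA that builds nuclear paraspeckles, had 56.4, 58.7 and 59.7 CPM at 100 µg/ml, against 167, 147 and 195 CPM at 1 µg/ml and 163, 133 and 161 CPM at 10 µg/ml. Its 3 libraries at 100 µg/ml were close together, and untreated cells had 168, 163 and 171 CPM, within the range of the lower doses. Neat1 differed by -1.47 ± 0.10, adjusted p = 1.95e-15. Dio2 (chromosome 12, 90724552 to 90739038), the deiodinase that activates thyroid hormone, had 11.9, 14.2 and 9.86 CPM at 100 µg/ml, against 29.1, 34.2 and 31.2 CPM at 1 µg/ml and 32.2, 38.4 and 31.2 CPM at 10 µg/ml, and Olr1 (chromosome 6, 129479150 to 129507350), a scavenger receptor for oxidised lipoprotein, had 7.49, 6.48 and 9.86 CPM at 100 µg/ml, against 20.2, 26.01 and 21.7 CPM at 1 µg/ml and 29.4, 24.5 and 24.5 CPM at 10 µg/ml. For both genes untreated cells, at 9.22, 10.5 and 11.5 CPM for Dio2 and 10.4, 6.84 and 5.11 CPM for Olr1, were close to the cells at 100 µg/ml. Dio2 differed by -1.42 ± 0.19 (adjusted p = 3.98e-07) and Olr1 by -1.64 ± 0.22 (adjusted p = 8.77e-07). Chac1, an enzyme that degrades glutathione, had 9.69, 7.69 and 9.86 CPM at 100 µg/ml, against 23.1, 17.8 and 20.7 CPM at 1 µg/ml and 19.96, 13.9 and 36.3 CPM at 10 µg/ml, with the libraries at 10 µg/ml far apart, and differed by -1.27 ± 0.24, adjusted p = 0.000373. Foxs1, a forkhead transcription factor, was at 2.74 to 3.96 CPM at 100 µg/ml, against 5.20 to 12.0 CPM at the lower doses, and differed by -1.37 ± 0.31, adjusted p = 0.00401. Malat1, the other abundant nuclear long non-coding RNA, averaged 4432 ± 271 CPM at 100 µg/ml and 5737 ± 563 CPM at the lower doses (SD, n = 3 and 6) and differed by -0.37 ± 0.09, a call lost without the first library at 100 µg/ml (adjusted p = 0.0991).

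The regulatory sequence beside some of these genes is shown because Ptgs2, Has1, Dio2, Ccn1, Il6 and Chac1, 6 of the 9 leading falls with a promoter in the RefSeq table of GRCm38.p6, hold the core of the cyclic AMP response element, TGACG on either strand. Each window has 300 bases, 250 before and 50 after a start site, and is written 5′ to 3′ on the gene's strand. Capitals mark the motifs searched, on both strands: the full cyclic AMP response element TGACGTCA and its core TGACG, the AP-1 site TGACTCA, the TEAD site GGAATG, the NF-kB consensus site, the metal response core TGCNCNC, the TATA box TATAAA and the CArG box of SRF. The core lies within the full element wherever that occurs. The windows are Has1 at chr17:17855139-17855438, minus strand, Dio2 at chr12:90738989-90739288, minus strand, Ccn1 at chr3:145649936-145650235, minus strand, and Il6 at chr5:30012864-30013163, plus strand.
Has1: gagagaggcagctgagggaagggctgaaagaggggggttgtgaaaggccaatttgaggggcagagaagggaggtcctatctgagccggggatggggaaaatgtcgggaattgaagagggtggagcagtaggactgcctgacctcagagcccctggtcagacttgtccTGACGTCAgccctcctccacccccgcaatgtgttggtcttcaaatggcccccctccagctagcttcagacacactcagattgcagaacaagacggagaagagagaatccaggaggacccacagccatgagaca
Dio2: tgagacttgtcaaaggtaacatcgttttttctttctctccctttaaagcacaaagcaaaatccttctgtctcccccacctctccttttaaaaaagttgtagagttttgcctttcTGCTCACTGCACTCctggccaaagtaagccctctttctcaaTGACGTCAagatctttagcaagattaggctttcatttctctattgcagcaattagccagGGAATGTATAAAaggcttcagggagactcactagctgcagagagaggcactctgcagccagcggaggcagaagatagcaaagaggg
Ccn1: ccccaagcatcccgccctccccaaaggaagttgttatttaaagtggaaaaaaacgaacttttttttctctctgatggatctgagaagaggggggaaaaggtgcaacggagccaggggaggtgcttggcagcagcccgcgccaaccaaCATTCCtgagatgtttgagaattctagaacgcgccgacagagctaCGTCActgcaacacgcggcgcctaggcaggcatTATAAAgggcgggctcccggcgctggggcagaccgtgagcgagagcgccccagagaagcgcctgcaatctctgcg
Il6: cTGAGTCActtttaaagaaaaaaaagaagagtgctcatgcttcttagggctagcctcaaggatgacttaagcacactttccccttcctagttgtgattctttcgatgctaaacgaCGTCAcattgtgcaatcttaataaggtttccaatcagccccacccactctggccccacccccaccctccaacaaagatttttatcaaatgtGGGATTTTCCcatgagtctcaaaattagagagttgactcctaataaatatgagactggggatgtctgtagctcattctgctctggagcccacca

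Has1 and Dio2 hold the full element, Ccn1 holds a core, a TEAD site and a TATA box, and Il6 holds an AP-1 site, a core and an NF-kB site. Over 32851 promoter windows of the table, 20.8% hold the core TGACG, 1.79% the full element, 5.20% the AP-1 site, 14.7% the TEAD site, 1.63% the NF-kB site, 51.0% the metal response core, 13.6% the TATA box and 1.63% the CArG box. The wider set of genes called lower gives another picture, with 1 window taken per gene. Of 326 with a window, 31.9% hold the core and 3.99% the full element, against 30.8% and 3.07% of the 11009 tested genes with a window. The CArG box is in 13 of the 326 (3.99%), against 1.32% of the tested genes, and in 2 of 140 genes called higher (1.43%). The 13 are Actg1, Arpc4, Arrdc4, Asb5, Dusp5, Fermt2, Fhl2, Lima1, Lmcd1, Ranbp2, Rnd3, Top1 and Vcl. Several encode proteins of the actin cytoskeleton, while others, such as Arrdc4, Dusp5 and Top1, do not. The AP-1 site is in 6.75% of the genes called lower and 0.714% of those called higher, against 3.56% of tested genes. The NF-kB site is in 7 of the genes called lower (2.15%) and 6 of those called higher (4.29%), against 1.68% of tested genes. In the same order the shares are 12%, 12.9% and 7.72% for the TATA box. They are 11.3%, 8.57% and 12.3% for the TEAD site and 62%, 58.6% and 59.6% for the metal response core. A match describes letters only.

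Genes of NF-kB signalling, chemokines, transforming growth factor beta (TGF-beta) and matrix turnover were lower in smaller shares. Of 22 genes of NF-kB feedback, cytokines and adhesion 6 fell and 0 rose, with a median of -0.14, where 2.89% and 1.24% of all genes were called lower and higher. Without the first library at 100 µg/ml 4 were called lower, and without the second or the third 5. Nfkbiz and Bcl3, atypical IkB proteins, differed by -0.76 ± 0.11 and -0.89 ± 0.18, and Vcam1, an adhesion molecule, by -0.68 ± 0.09. Nfkbia, the classical inhibitor of NF-kB, stood at 0.07 ± 0.09, Tnfaip3 at 0.32 ± 0.35 and Icam1 at 0.02 ± 0.09, and none of these passed the test. Of 12 chemokine genes 3 fell and 0 rose: Ccl2 at -0.55 ± 0.10, Ccl7 at -0.66 ± 0.12 and Cxcl5 at -0.85 ± 0.18. Ccl2, which attracts monocytes, averaged 198 ± 24.8 CPM at 100 µg/ml and 292 ± 21.6 CPM at the lower doses (SD, n = 3 and 6), and untreated cells had 72.1, 66.3 and 55.3 CPM. None of the 3 chemokines was called with the first library as the only one at 100 µg/ml.

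Of 19 TGF-beta targets and ligands 4 fell and 0 rose, against 2.89% and 1.24% of all genes, with a median of -0.17. On leaving out any library at 100 µg/ml 3 were called lower. Inhba, the activin A subunit, averaged 245 ± 48.04 CPM at 100 µg/ml and 541 ± 72.1 CPM at the lower doses (SD, n = 3 and 6), a difference of -1.13 ± 0.09 with adjusted p = 8e-13. The fibrillar collagen gene Col1a1 stood at 0.00 ± 0.09 and was not called, and of 30 matrix genes 2 fell and 0 rose. The falls included Lox, a collagen cross-linking enzyme, at -0.24 ± 0.07, a call that held in 2 of the 9 fits that leave out 1 library, with an adjusted p of up to 0.182, and 1 fall was called on leaving out any library at 100 µg/ml. Tnc, the wound matrix glycoprotein tenascin C, had 232, 307 and 295 CPM at 100 µg/ml, against 423, 405 and 425 CPM at 1 µg/ml and 493, 604 and 469.8 CPM at 10 µg/ml and differed by -0.75 ± 0.11, adjusted p = 3.31e-06. Although 28 of the 30 matrix genes had a negative difference, their median was small at -0.19. Among 24 matrix proteases and inhibitors 6 fell and 1 rose. The falls included the collagenase Mmp13 at -1.09 ± 0.23 and the tissue inhibitor Timp3, which averaged 1568 ± 61.6 CPM at 100 µg/ml and 2319 ± 128 CPM at the lower doses (SD, n = 3 and 6) and differed by -0.56 ± 0.06, adjusted p = 1.27e-08. The rise, of Timp4, had 1.32, 8.095 and 8.22 CPM at 100 µg/ml, with the first library among those of the lower doses, at 0.926 to 2.80 CPM. The call held in 5 of 9 fits, and the difference turned to -0.53 (adjusted p = 0.891) when that library stood alone. Of 25 growth factors and their receptors 4 fell and 0 rose, among them Fgf7, keratinocyte growth factor, at -0.56 ± 0.11. Fgf2, Fgf10 and Hgf made up the rest, with calls that held in 5, 2 and 4 of the 9 fits that leave out 1 library, and without the first or the third library at 100 µg/ml 1 of the 25 was called.

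**Figure D3:**
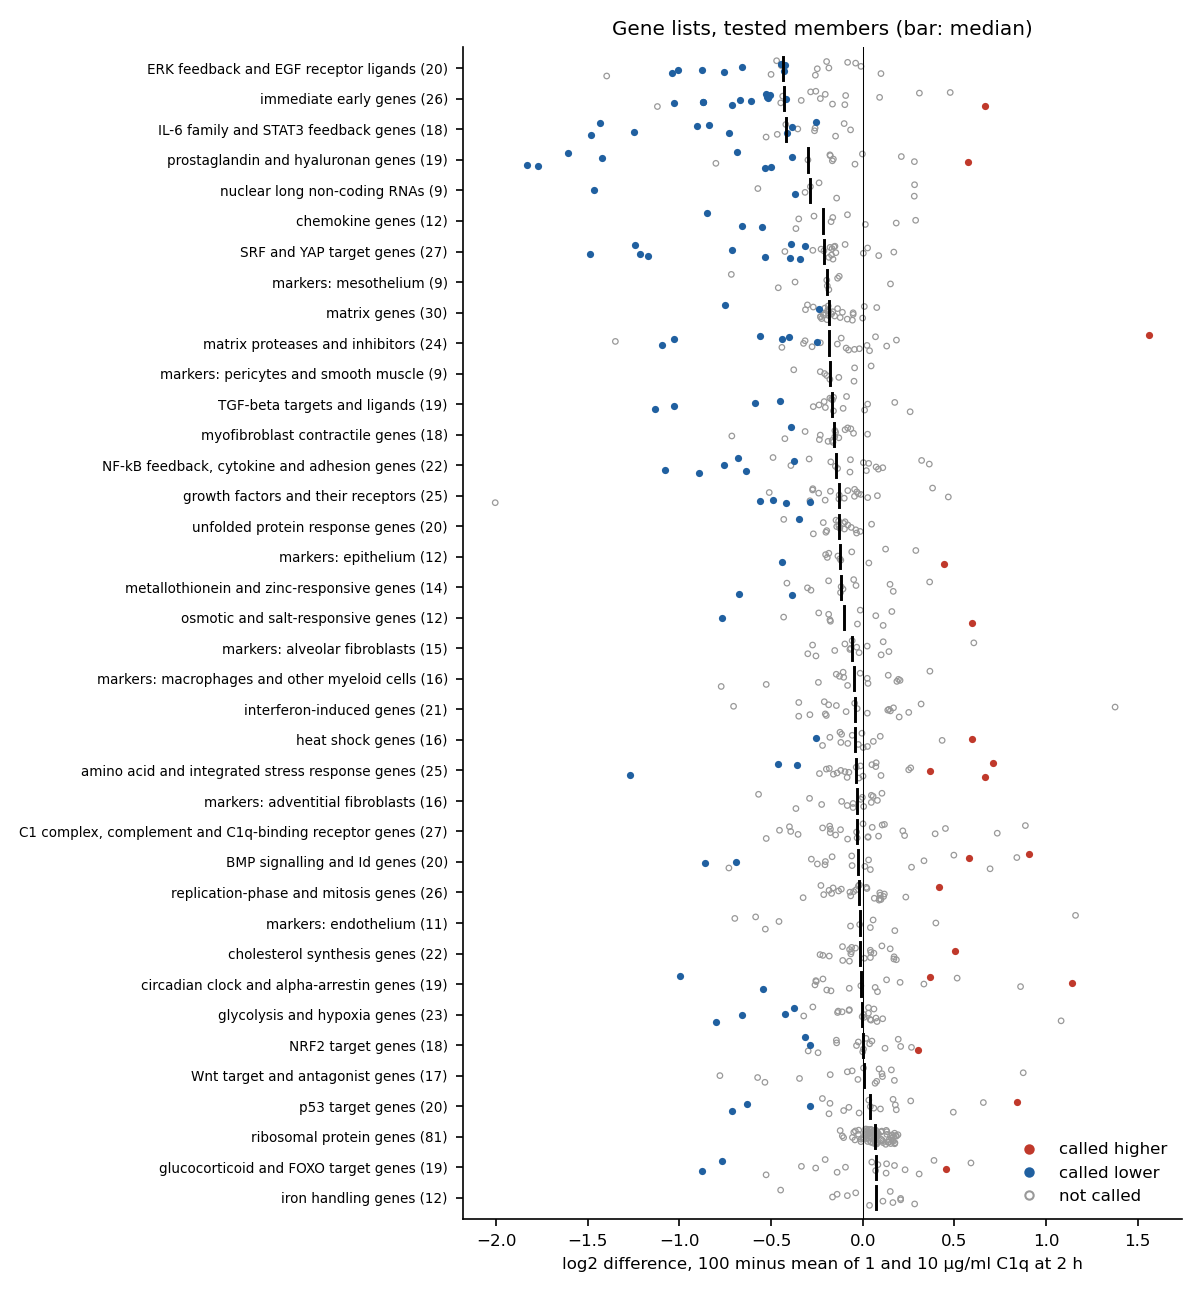
Log2 difference, 100 µg/ml minus the mean of 1 and 10 µg/ml at 2 h (horizontal axis), of each tested member of the gene lists, with the number tested in brackets and the lists ordered by their median (black bar). Red and blue points were called higher and lower and open circles were not called, and the lists of ERK feedback, immediate early and interleukin-6 genes have the lowest medians, at -0.44, -0.43 and -0.42.

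Fewer named genes were higher at 100 µg/ml, and the leading ones are of mixed function. Ppp1r10 (chromosome 17, 35916512 to 35932283), a nuclear regulatory subunit of protein phosphatase 1 that acts on RNA polymerase II, had 88.5, 96.3 and 107 CPM at 100 µg/ml, against 34.4, 36.4 and 36.002 CPM at 1 µg/ml and 39.6, 43.99 and 41.9 CPM at 10 µg/ml. The 6 lower-dose libraries and the untreated ones, at 36.5, 37.4 and 40.9 CPM, lay in 1 narrow band, with all 3 at 100 µg/ml above it. The difference was 1.33 ± 0.11, adjusted p = 1.54e-12, and 1.20 with adjusted p = 5.39e-06 when the first library stood alone. Pcf11 (chromosome 7, 92643458 to 92670080), a factor of transcript cleavage and termination, had 67.8, 75.3 and 85.5 CPM at 100 µg/ml, against 38.3, 41.6 and 42.8 CPM at 1 µg/ml and 45.5, 59.3 and 49.1 CPM at 10 µg/ml, with untreated cells at 38.1, 40.5 and 40.4 CPM. Pcf11 differed by 0.73 ± 0.11, adjusted p = 1.02e-05.

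Dbp and Cdkn2d were higher still in untreated cells. Dbp (chromosome 7, 45705100 to 45710203), an output transcription factor of the circadian clock, had 19.4, 17.8 and 19.2 CPM at 100 µg/ml, against 10.6, 9.54 and 9.17 CPM at 1 µg/ml and 6.303, 6.48 and 9.71 CPM at 10 µg/ml, and 27.3, 28.4 and 25.5 CPM in untreated cells. At 100 µg/ml it lay between the lower doses and the untreated cells, and it differed by 1.14 ± 0.17, adjusted p = 5.31e-06. Dbp overlaps Sphk2 in the annotation. Of the 19 genes of the clock and alpha-arrestin list 2 rose, Dbp and its relative Tef, and 2 fell, Txnip at -0.998 ± 0.14 and Arrdc4 at -0.54 ± 0.12, both alpha-arrestins. Among all genes 1.24% were called higher and 2.89% lower. The call of Tef held in 4 of the 9 fits that leave out 1 library, with an adjusted p of up to 0.116 without the third at 100 µg/ml, and that of Arrdc4 was lost without the same library (adjusted p = 0.0643). The core clock genes Arntl, at 0.08 ± 0.20, and Clock, at -0.01 ± 0.13, were not called. Cdkn2d, an inhibitor of the cyclin D kinases, had 73.1, 56.7 and 59.2 CPM at 100 µg/ml, against 33.7, 49.4 and 36.002 CPM at 1 µg/ml and 44.5, 36.1 and 39.4 CPM at 10 µg/ml, and 75.8, 86.3 and 84.7 CPM in untreated cells, and differed by 0.66 ± 0.12, adjusted p = 0.000319. Sesn1, a stress-response gene of the p53 list, rose by 0.84 ± 0.17, and Klf11, a Krüppel-like factor, by 1.08 ± 0.23. In Klf11 the libraries of the lower doses did not overlap, at 7.09, 9.54 and 6.79 CPM at 1 µg/ml and 2.45, 3.24 and 5.11 CPM at 10 µg/ml, and 100 µg/ml had 10.6, 10.5 and 12.1 CPM. The difference of 10 from 1 µg/ml was -1.14 ± 0.30, adjusted p = 0.0527.

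The other leading rises were Rhof, a small GTPase, at 1.25 ± 0.24, Sox12, a transcription factor, at 0.97 ± 0.21, Smyd4, Zfp219 and Cradd at 0.75 ± 0.17, 0.75 ± 0.17 and 0.74 ± 0.17, Trib3 at 0.71 ± 0.14, Fam189b at 0.63 ± 0.11 and Faap20, of the Fanconi anaemia core complex, at 0.62 ± 0.13. Trib3, a pseudokinase induced by amino acid stress, had 38.3, 43.7 and 37.8 CPM at 100 µg/ml, against 22.7, 22.1 and 25.1 CPM at 1 µg/ml and 29.1, 24.5 and 22.5 CPM at 10 µg/ml. On the list of amino acid and integrated stress response genes 3 of 25 rose and 3 fell, with Chac1 at -1.27 and Trib3 at 0.71 at the ends, and Atf4 at 0.00 ± 0.08 and Asns at -0.09 ± 0.09 not called. Without the second or the third library at 100 µg/ml the list had 1 rise and 1 fall, and without the first 3 rises and 1 fall. Of 20 genes of bone morphogenetic protein (BMP) signalling 2 were higher and 2 lower, with a median of -0.02, where 1.24% and 2.89% of all genes were called higher and lower. The rises were Id3 and Smad9, a BMP-activated transcription factor, at 0.91 ± 0.28. The call of Smad9 held in 4 of the 9 fits that leave out 1 library, and it was lost without the first (adjusted p = 0.0991) or the second (0.674) library at 100 µg/ml. Id3, a BMP-induced protein that blocks helix-loop-helix transcription factors, had 247, 208 and 196 CPM at 100 µg/ml, against 160.3, 168 and 165 CPM at 1 µg/ml and 139.7, 124 and 120.1 CPM at 10 µg/ml, and 726, 782 and 815 CPM in untreated cells, so all 9 libraries with C1q were below untreated and those at 100 µg/ml nearest to it. The difference was 0.58 ± 0.10, adjusted p = 0.000106. The BMP antagonists Fst, at -0.86 ± 0.10, and Grem1, at -0.69 ± 0.12, were lower at 100 µg/ml. Several of the leading genes share genomic positions with another annotated gene, among them Cebpd with Spidr, Rhof with Tmem120b, Smyd4 with Rpa1, Pcf11 with Gm26944 and Ppp1r10 with Mir1894, and reads there may belong to either.

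**Figure D4:**
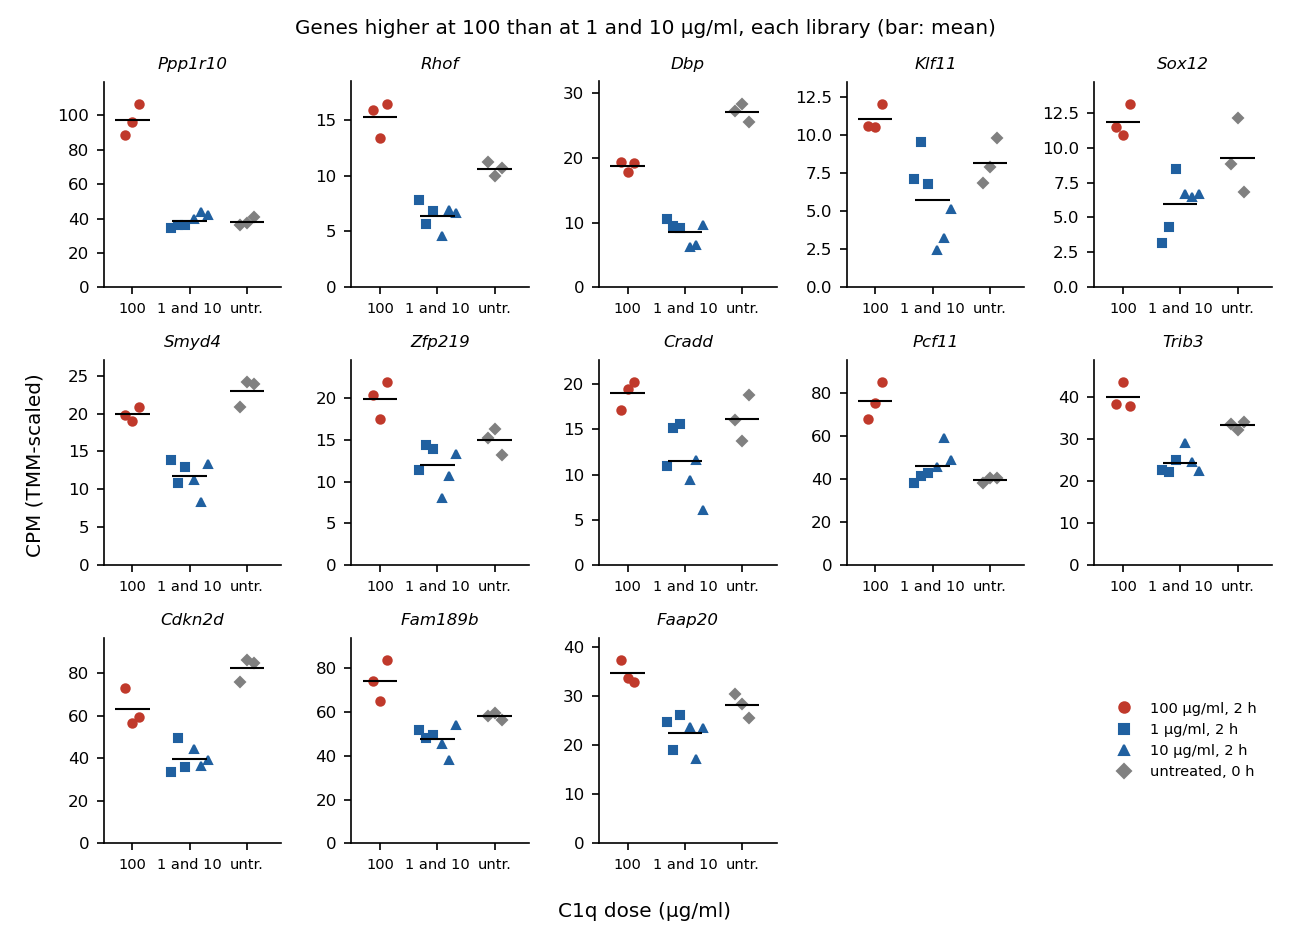
TMM-scaled CPM of 13 of the 14 leading rises in each library at 100 µg/ml (circles), 1 µg/ml (squares) and 10 µg/ml (triangles) after 2 h, and in untreated cells at 0 h (diamonds), with bars for the means. All 3 libraries at 100 µg/ml lie above the 6 at the lower doses, as the naming rule required, and untreated cells lie below them for Ppp1r10, Pcf11 and Rhof and above them for Dbp and Cdkn2d.

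Several gene groups gave no call at 2 h. None of the 81 ribosomal protein genes, the 27 genes of complement and C1q-binding receptors, the 21 interferon-induced genes, the 17 Wnt genes or the 12 iron genes was called. C1qa, C1qb and C1qc, which encode the chains of C1q, stood at -0.08 ± 0.29, -0.53 ± 0.23 and 0.03 ± 0.29. Markers of adventitial (16) and alveolar (15) fibroblasts, myeloid cells (16), mesothelium (9), endothelium (11) and pericytes (9) had 0 calls as well, and epithelial markers had 1 fall, Cldn4, and 1 rise, Ager, of 12. The call of Cldn4 held in 2 and that of Ager in 6 of the 9 fits that leave out 1 library, with adjusted p of up to 0.235 for Cldn4 without the third and 0.177 for Ager without the first at 100 µg/ml. Glycolysis and hypoxia genes had 4 falls of 23, led by Adm, adrenomedullin, at -0.80 ± 0.08 and Hk2, a hexokinase, at -0.66 ± 0.14, with Gapdh at 0.01 ± 0.07 and Ldha at 0.01 ± 0.08 not called, and 2 falls were called without the third library at 100 µg/ml. Unfolded protein response genes had 1 fall of 20, Xbp1, lost without the second library at 100 µg/ml (adjusted p = 0.0563), and NRF2 target genes 2 falls and 1 rise of 18. None of those 3 calls was made without the third library at 100 µg/ml, and without the first or the second 1 fall was. The p53 target list had 3 falls and 1 rise of 20, with Btg2, an anti-proliferative gene, at -0.71 ± 0.10 and Plk2, a polo-like kinase, at -0.63 ± 0.08, and the list of glucocorticoid and FOXO targets had 2 falls and 1 rise of 19, with the kinase gene Sgk1 at -0.77 ± 0.09. Osmotic and heat shock genes had 1 fall and 1 rise each, of 12 and 16, and cholesterol synthesis and mitosis genes 1 rise each, of 22 and 26. Among these calls Foxo3 of the FOXO list held in 6, Plk1 of mitosis in 5, and Mdm2 of the p53 list and Hspa4 of heat shock in 3 of the 9 fits that leave out 1 library, with adjusted p of up to 0.130 for Foxo3, 0.282 for Mdm2 and 0.208 for Hspa4. With 2.89% of all genes called lower and 1.24% higher, nothing is read from a count of 1 in lists of this size. The ribosomal protein genes, though none was called, had a median of 0.07, with 11 of the 81 below 0.

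The difference could be read against each lower dose alone. These 2 comparisons share the libraries at 100 µg/ml with each other and with the one above, so their values are set side by side and not tested against it. Against 1 µg/ml 465 genes were called (3.22%), 185 higher and 280 lower, and against 10 µg/ml 509 (3.53%), 128 higher and 381 lower. Between the lower doses 121 genes were called (0.839%), 116 of them higher and 5 lower at 10 than at 1 µg/ml. Has2 stood at -1.69 ± 0.14 against 1 µg/ml and -1.97 ± 0.14 against 10 µg/ml, and at 0.28 ± 0.11 between the lower doses. For Ccn1 the values were -1.49 ± 0.14, -1.49 ± 0.14 and 0.01 ± 0.13 in the same order. Ppp1r10 stood at 1.44 ± 0.13, 1.22 ± 0.13 and 0.23 ± 0.14. Genes with a step at 10 µg/ml as well include Socs3, given above, and Fst, at -0.53 ± 0.12, -1.19 ± 0.12 and 0.66 ± 0.11, adjusted p = 0.000234 for the last. The count against 1 µg/ml was 292 without the first and 257 without the third library at 100 µg/ml, and 233 without the second at 1 µg/ml. Against 10 µg/ml it was 295 without the first and 304 without the third library at 100 µg/ml, and 327 without the first at 10 µg/ml. Between the lower doses it was 77 without the first and 45 without the second library at 1 µg/ml, and 67 without the third at 10 µg/ml.

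Untreated cells, taken at 0 h and not at 2 h, give a point of orientation and no test here. Of the 417 genes called lower, 194 (46.5%) had an untreated mean below both dose means, so that 100 µg/ml lay between untreated cells and the lower doses. Another 194 (46.5%) had it between the doses, with 100 µg/ml below untreated cells, and 29 (6.95%) above both. Over all 7388 genes with a negative difference the shares were 33.8%, 28.1% and 38%. Thbs1, Ptgs2 and Ereg are examples of the first kind, Has2 and Ccn1 of the second, and Cebpd of the third. Of the 179 genes called higher the untreated mean was below both dose means in 59 (33%), between them in 94 (52.5%) and above both in 26 (14.5%), against 32.5%, 24.7% and 42.8% of the 7031 genes with a positive difference. Called genes have a wider gap between the dose means by selection, which by itself raises the share in between. Nothing is therefore read from their shares beside those of all genes.

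The same dose contrast was then taken at 24, 48 and 72 h, in 9 libraries at 100 µg/ml and 18 at the lower doses that the comparison at 2 h does not use. Averaged over these times, 15.4% of all genes were higher and 17.4% lower at 100 µg/ml. Of the 179 genes higher at 2 h, 78 (43.6%) were higher later and 9 lower, and the 78 are 3.52% of the 2215 genes higher later. The 179 include the 28 genes in which the first library at 100 µg/ml and 2 h did not stand above the lower doses. Some of these, such as Tnfrsf26, had high and unequal levels at 100 µg/ml later too. How many of the 78 belong to that group is not given here. Of the 417 genes lower at 2 h, 157 (37.6%) were lower later and 54 (12.9%) higher, the 157 being 6.25% of the 2514 genes lower later. The contrast at 2 h itself differed from its later average in 1514 genes (10.5%). In 63 genes both contrasts and their difference were called and the directions were opposite, 54 of them lower and 9 higher at 2 h. Without the first library at 100 µg/ml and 2 h the contrasts differed in 967 genes.

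Mt1 and Mt2, metallothioneins that bind zinc and copper and are induced by metals through the factor MTF1, were among the genes of opposite direction. At 2 h Mt2 had 249, 278 and 245 CPM at 100 µg/ml, against 346, 422 and 397 CPM at 1 µg/ml and 432, 503 and 374 CPM at 10 µg/ml, and untreated cells had 201, 231 and 195 CPM. All 3 libraries at 100 µg/ml were below the 6 at lower doses, with a difference of -0.68 ± 0.11, adjusted p = 3.13e-05. The contrast at 24, 48 and 72 h was 0.35 ± 0.12, 1.33 ± 0.11 and 1.66 ± 0.11, and that at 2 h minus the later average was -1.79 on the log2 scale, adjusted p = 6.7e-14. At 2 h Mt1 had 431, 421 and 369.7 CPM at 100 µg/ml, against 467, 577 and 514 CPM at 1 µg/ml and 559, 625 and 459.6 CPM at 10 µg/ml, a difference of -0.39 ± 0.11 with adjusted p = 0.026, a call that held in 3 of the 9 fits that leave out 1 library, with an adjusted p of up to 0.206 without the third at 100 µg/ml. Later it stood at 0.18 ± 0.11, 1.25 ± 0.11 and 1.60 ± 0.11. Of 14 metallothionein and zinc-responsive genes these 2 were called lower at 2 h and 0 higher, where 2.89% and 1.24% of all genes were. On leaving out any library at 100 µg/ml 1 of the 14 was called lower. Slc30a1, a zinc exporter that MTF1 also induces, stood at 0.17 ± 0.20. The promoters of both genes are shown for their metal response cores, with the motifs in capitals as above, Mt1 at chr8:94178839-94179138, plus strand, and Mt2 at chr8:94172368-94172667, plus strand. Mt1 holds 3 cores and Mt2 holds 6.
Mt1: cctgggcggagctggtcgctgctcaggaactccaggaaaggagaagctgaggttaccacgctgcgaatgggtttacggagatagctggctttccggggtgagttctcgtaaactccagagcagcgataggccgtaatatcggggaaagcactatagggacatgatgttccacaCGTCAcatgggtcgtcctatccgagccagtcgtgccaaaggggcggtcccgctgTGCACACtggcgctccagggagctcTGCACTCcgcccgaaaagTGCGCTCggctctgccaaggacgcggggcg
Mt2: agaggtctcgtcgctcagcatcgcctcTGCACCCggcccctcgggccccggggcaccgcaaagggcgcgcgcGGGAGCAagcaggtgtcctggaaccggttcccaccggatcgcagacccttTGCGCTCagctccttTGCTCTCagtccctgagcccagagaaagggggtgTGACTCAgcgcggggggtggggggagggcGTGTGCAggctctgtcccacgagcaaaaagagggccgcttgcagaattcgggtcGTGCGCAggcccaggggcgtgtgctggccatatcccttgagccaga

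Thbd, thrombomodulin, an anticoagulant receptor, also had opposite directions. At 2 h it had 144, 149 and 160.5 CPM at 100 µg/ml, against 243, 235 and 227 CPM at 1 µg/ml and 289.9, 238 and 287 CPM at 10 µg/ml. Its contrast was -0.75 ± 0.08 at 2 h and 0.76 ± 0.05 on average later, and the difference of the contrasts had an adjusted p of 2.04e-15. Angptl4, an inhibitor of lipoprotein lipase, stood at -1.12 ± 0.15 at 2 h and 0.52 ± 0.08 later. Gfpt2, an enzyme of hexosamine synthesis, stood at -0.82 ± 0.08 and 0.36 ± 0.05. Tnfsf15, a tumour necrosis factor family ligand, stood at -1.21 ± 0.12 and 0.31 ± 0.09.

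Genes differed in how long the contrast lasted. Cebpd stood at -1.48 ± 0.11 at 2 h and at -0.07 ± 0.05 on average over the later times, with adjusted p = 9.8e-12 for the difference. Ccn1 stood at -1.49 ± 0.13 and -0.16 ± 0.08, with adjusted p = 7.01e-09. These averages join values of both signs. At 24, 48 and 72 h Cebpd had -0.07 ± 0.09, -0.33 ± 0.09 and 0.18 ± 0.09, and Ccn1 had 0.23 ± 0.14, -0.46 ± 0.11 and -0.25 ± 0.15. Both were called lower at 48 h (adjusted p = 0.0139 and 0.00286). Neat1 was still lower at 24 h, at -1.18 ± 0.08, and stood at -0.06 ± 0.08 at 48 h. Ptger4 was lower at all 4 times, at -1.28 ± 0.15, -1.40 ± 0.14 and -0.85 ± 0.16 after 24, 48 and 72 h, and its contrast at 2 h minus the later average was -0.25, adjusted p = 0.582. Of the rises, Ppp1r10 stood at 0.05 ± 0.07 later, with adjusted p = 1.14e-09 for the difference, and Pcf11 at 0.00 ± 0.08, adjusted p = 0.000136. Trib3 was higher again at 48 and 72 h, at 1.39 ± 0.16 and 1.16 ± 0.17.

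**Figure D5:**
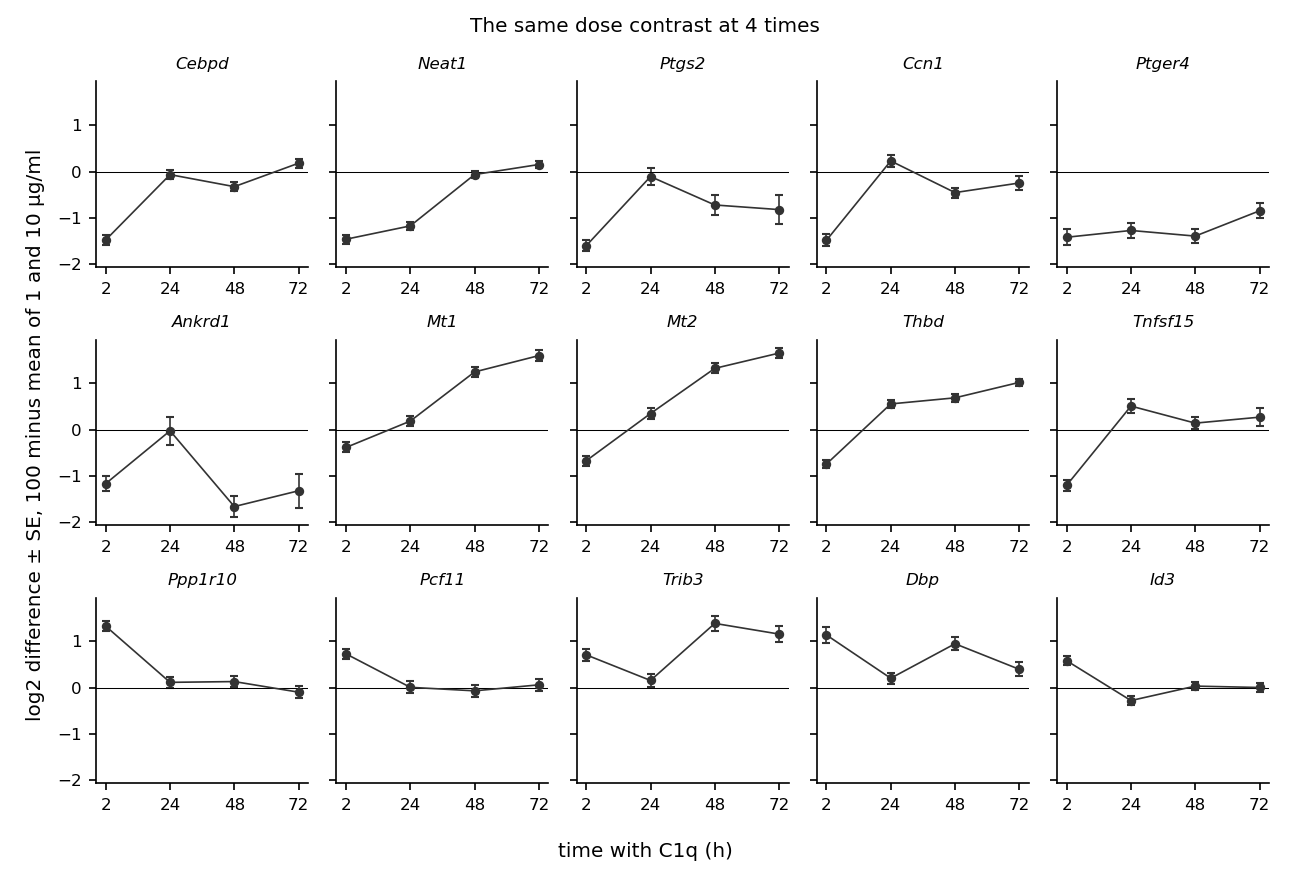
The log2 difference, 100 µg/ml minus the mean of 1 and 10 µg/ml (vertical axis, with bars of 1 SE), at 2, 24, 48 and 72 h for 15 genes, each time with 3 libraries at 100 µg/ml and 6 at the lower doses. Ppp1r10 and Pcf11 are called at 2 h and at no later time shown, Ptger4 stays negative, and Mt1, Mt2 and Thbd pass from negative to positive values.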

How the data were processed

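The measurement is 5′-end sequencing of poly(A) RNA, deposited by the authors as 1 table of whole-number counts for 30012 gene names in 39 libraries. All 39 columns were matched to samples by the serial number in their names, including 9 columns of later times that are spelled differently from the labels. Per the submitters' processing notes, cutadapt 2.1.0, Bowtie2 2.4.2 and the build GRCm38 were used. Which counting tool, annotation, strand setting and molecular identifiers were used is not given in the sources used here, so genes that overlap on either strand are uncertain. The labels do not say whether the 3 libraries of a group came from separate cultures or animals, and p-values therefore reflect library-to-library spread, which may be technical. Pairs of replicates differed by 1.85 to 4.24 times the sampling variance (chi-square per degree of freedom over 9 pairs), so none was counted as a repeat.

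The counts were filtered by edgeR's default rule by group, which left 14419 genes with 99.4% of the counts, scaled by TMM and fitted with edgeR 4.0.16 (limma 3.58.1, R 4.3.3) as 13 group means over all 39 libraries, with 26 residual degrees of freedom. Contrasts were tested by quasi-likelihood F tests with Benjamini-Hochberg adjustment over all genes tested, and called at an adjusted p under 0.05. The SE of a log2 difference is its size divided by the square root of F. The same code was tested on simulated counts. DESeq2 1.42.0 was an alternative. Total counts at 2 h, 1806106 to 2956523, limit precision for genes of a few CPM.

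Named genes are the 14 largest rises and 14 largest falls under the rule given in the report, up to 4 called members of each gene list and its defining members, and up to 6 genes with opposite directions at 2 h and later. The comparison, the lists and these rules were chosen with earlier results of these data known. Genes named outside the rules were chosen after their values were seen: Tnfrsf26, Bicra, Cd44, Tnfaip6, Cemip, Hyal1, Pim3, Fosl2, Ier3, Klf6, F3, Actb, Actg1, the genes with a CArG box, and the uncalled or marker genes Egr1, Jun, Nr4a1, Nr4a3, Tnfaip3, Icam1, Tagln, Arntl, Clock, Asns, Slc30a1, C1qc, Gapdh, Ldha, Pdgfra, Dcn and Lyz2. A few genes that met the rules are not reported here. Coordinates and promoters come from RefSeq on GRCm38.p6, matched by symbol for 28849 of the 30012 names. Python 3.11.15, pandas 2.3.3 and matplotlib 3.10.9 were used for promoters and figures.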

Additional observations from a re-analysis of the deposited data

Results flagged for a closer look

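The contrast of 100 µg/ml with the mean of 1 and 10 µg/ml differed between 2 h and the later times in 62 of the 95 named genes called at 2 h, by the test of that difference itself in the fit over all genes (edgeR's quasi-likelihood test, Benjamini-Hochberg adjusted p under 0.05). The named genes were chosen for their contrast at 2 h, some of them also for an opposite direction later, so nothing is read from their share. In 48 the contrast at 2 h was lower than its average over 24, 48 and 72 h and in 14 it was higher. The values below are the contrast at 2 h minus that average on the log2 scale. The difference was -2.24 for Foxs1, -1.79 for Mt2, -1.64 for Angptl4, -1.51 for Tnfsf15, -1.5 for Thbd, -1.41 for Cebpd, -1.4 for Mt1, -1.33 for Ccn1, -1.32 for Chac1 and -1.31 for Olr1. For the next genes in order of size it was -1.29 for Egr3, -1.29 for Txnip, -1.25 for Dio2, -1.21 for Ereg, -1.18 for Gfpt2, -1.17 for Fosl1, -1.14 for Il11, -1.1 for Neat1, -1.06 for Ptgs2 and -0.962 for Errfi1. It was -0.947 for Ccn2, -0.945 for Smad3, -0.906 for Malat1, -0.897 for Has2, -0.872 for Dusp4, -0.854 for Sgk1, -0.849 for Bcl3, -0.849 for Cxcl5, -0.75 for Socs3 and -0.748 for Plk2. Among smaller differences it was -0.697 for Arrdc4, -0.671 for Fgf10, -0.654 for Tgfb2, -0.642 for Inhba, -0.574 for Fgf7, -0.573 for Thbs1, -0.567 for Btg2, -0.557 for Nfkbiz, -0.557 for Cldn4 and -0.553 for Slc7a5. The smallest negative values were -0.54 for Ager, -0.532 for Pim1, -0.516 for Slc2a1, -0.482 for Fgf2, -0.448 for Nfe2l2, -0.445 for Adm, -0.407 for Timp3 and -0.353 for Ndrg1. A contrast that was higher at 2 h gave 1.28 for Ppp1r10, 1.27 for Smad9, 1.11 for Mvd, 0.921 for Plk1, 0.822 for Rhof, 0.796 for Klf11 and 0.733 for Pcf11. The remaining positive values were 0.696 for Cdkn2d, 0.67 for Zfp219, 0.664 for Id3, 0.631 for Cradd, 0.624 for Dbp, 0.566 for Mmp3 and 0.533 for Sesn1.

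Egr3 was at 46.8 CPM in the second library at 10 µg/ml, apart from the other 5 libraries of the lower doses by a gap that is large for a group of 6. Chance flags about 1 in 20 groups in this way, and the 6 libraries of 95 genes were looked at.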

How the results depend on the processing

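No gene of the 596 called at 2 h changed direction under DESeq2 (473 called, 122 higher and 351 lower), RLE scaling (596), thinning to the smallest library (538), a robust fit (635), removal of the most abundant name (553), no filter on low counts (584, split as 218 higher and 366 lower), or on leaving out any of the 9 libraries. The count of 596 was 325 at an adjusted p under 0.01, 111 with a log2 difference of at least 1, 385 in a fit of the 9 libraries of 2 h alone (137 higher, 248 lower), 323 in that same fit of 9 libraries with the lower doses also merged as 1 group (106 higher, 217 lower), and 119 with the first library as the only one at 100 µg/ml, where Timp4 stood at -0.53. That alternative, the gene list counts without libraries at 100 µg/ml, and leaving out each of the 27 later libraries were added after seeing the data. Leaving out 1 library gave 323 to 595 calls. Against 1 µg/ml the 465 calls were 218 at an adjusted p under 0.01, 104 with a log2 difference of at least 1, 298 in the fit of 9 libraries and 233 to 446 on leaving out 1 library. Against 10 µg/ml the 509 calls were 246, 113, 330 and 295 to 411 in the same order. Between 10 and 1 µg/ml the 121 calls were 73 at an adjusted p under 0.01, 24 with a log2 difference of at least 1 and 45 to 177 on leaving out 1 library. The 4729 later calls were 166 with a log2 difference of at least 1, and 4248 to 4952 on leaving out 1 library. The 1514 calls for the difference of the contrasts were 797 at an adjusted p under 0.01, 181 with a log2 difference of at least 1, and 967 to 1749 on leaving out 1 library. Of the 95 named called genes, 81 were also called by DESeq2, 76 in the fit of 9 libraries, 40 with the first library alone at 100 µg/ml, and 73 to 88 on leaving out 1 library. Thresholds lower these counts by construction and fewer libraries leave less to estimate the spread from, and otherwise the cause was not tested. No paired analysis was possible because the labels number the libraries serially and give the groups no shared replicate numbers. The fit of the 9 libraries of 2 h cannot give the later contrast. Depth limits what can be read from genes of a few CPM such as Has1 and Foxs1.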

Other observations

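Ppp1r10 and Pcf11, among the leading rises, both act at the end of transcription, and a list of 34 genes of transcription termination and 3′ end processing was written after those rises had been seen. Of 33 tested members 3 were higher at 100 µg/ml (Ppp1r10 at 1.33, Zc3h4, which acts in early termination, at 0.79 and Pcf11 at 0.73 on the log2 scale) and 0 lower, where 1.24% of all genes were called higher and 2.89% lower. Ppp1r10 and Pcf11 prompted the list, which leaves Zc3h4 as the only call that did not, so nothing is read from the count. Of the 33, 14 had a positive difference, and their median was -0.02, close to the -0.01 of all genes. Over the later times the 3 genes stood at 0.05 for Ppp1r10, 0.02 for Zc3h4 and 0.00 for Pcf11.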
